A study of Taeniopygia guttata with 2 samples.

Results

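The genes described here are the semaphorin, ephrin and netrin guidance genes of the zebra finch, with their plexin, neuropilin, Eph and UNC5 receptors. They were found by their symbols in a table of single nuclei: 56 of 17430 gene columns, of which 12787 carry a symbol, begin with SEMA, PLXN, EPHA, EPHB, EFNA, EFNB, NTN, NTNG or UNC5, or are NRP1 or NRP2. One of the 56, UNC50, shares only its first letters with the netrin receptors and was set aside, which leaves 55 genes: 17 semaphorins, 9 plexins and neuropilins, 7 ephrins, 13 Eph receptors, 5 netrins (the netrin-G genes included) and 4 UNC5 receptors. DCC, the other receptor of the netrins, was not analysed here. All 55 genes had at least 1 unique molecular identifier (UMI, a counted RNA molecule) in each library.

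The nuclei came from Area X, the song nucleus of the striatum, of adult zebra finches aged 160 to 185 days post hatch by the sample record. The study's methods give a later range for the age at which these birds were killed. Birds of both groups had been injected in Area X with an adeno-associated virus that expresses a short hairpin RNA in the absence of Cre: a scrambled hairpin in the shScr group and hairpins against FoxP2 in the shFoxP2 group, so the controls also carry virus and hairpin. Birds were kept on a reversed light cycle and tissue was taken before the lights came on, punches of 2 birds were pooled per group, and 1 library was made per group with a droplet 3′ kit. Nuclei that carried the virus were not told apart from those that did not.

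Semaphorins are secreted or membrane-bound ligands that act through plexins, with neuropilins as co-receptors for most of the secreted class 3 members. Ephrins are cell-surface ligands of the Eph receptor tyrosine kinases, the A type anchored by lipid and the B type spanning the membrane. Netrins attract or repel axons through DCC and the UNC5 receptors, whereas the netrin-G proteins are membrane-anchored and bind other partners at synapses; all of these families are known from axon growth in the embryo, and many of their members are also transcribed in the adult brain.

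The shScr library held 14289 nuclei and 39179294 UMIs (median 2300 UMIs per nucleus), and the shFoxP2 library 12956 nuclei and 42662731 UMIs (median 2871); 47 barcodes occurred in both. The 55 genes took 308630 and 311012 of these UMIs. A level is the gene's share of all UMIs in a cluster, given per 10000 UMIs, first in shScr and then in shFoxP2, and its interval is an exact 95% interval that covers counting error only. With 1 library per group there is no replicate: no difference between the libraries can be tested, and differences between the pooled birds cannot be told apart from those of the hairpin. RNA of FOXP2, the targeted gene, was not lower in the library labelled shFoxP2: its level over the medium spiny neurons (MSNs) was 4.75 and 5.85. These values count nuclear RNA over all MSN nuclei, with or without virus. The study measured its knockdown as FoxP2 protein, by staining in virus-carrying cells of Area X and by blots of cultured cells. The measures are unlike, and shFoxP2 is used below only as that library's label. The study's 23 clusters and their names were used: MSNs (clusters 1 to 5), astrocytes (6 and 7), oligodendrocytes (8), glutamatergic GLUT+ neurons (9 and 10), nucleated red blood cells (11), pallidal-like neurons (12), interneurons (13, 14, 16 to 19, 21 and 23), endothelial cells (15), oligodendrocyte precursors (20) and microglia (22). Astrocyte cluster 7 was deep (median 4109.5 and 4414.5 UMIs) and held FOXP2 at 3.99 and 4.36, so cluster 6 was used for astrocytes. FOXP2 was not particular to cluster 7. Oligodendrocytes (6.08 and 6.30), oligodendrocyte precursors (5.56 and 6.26) and endothelial cells (4.67 and 3.75) also held it. These clusters were used as they are, and the part of MSN RNA in their levels was not tested. PENK, listed as a marker of pallidal-like neurons, was highest in interneuron cluster 19. PPP1R1B, an MSN marker, was highest in red blood cell cluster 11 in both libraries. TAC1, another MSN marker, was highest there in shScr and in MSN cluster 2 in shFoxP2. The MSN marker FOXP1 was highest in an MSN cluster in each library. The red blood cell cluster was therefore not free of RNA of MSN markers, and the part of MSN RNA in it was not tested. Levels in the red blood cell cluster are given where they matter, because a neuronal RNA found there may include free RNA; free RNA itself was not measured.

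The families were spread over every cell type, and most genes had similar patterns in the 2 libraries. For the 48 genes with at least 200 UMIs, the correlation of a gene's level between the libraries over the 23 clusters had a median of 0.928 (range 0.362 to 0.992) and was at least 0.9 for 26; the libraries were clustered together, so this is a description. The same cluster was highest in both libraries for 29 of the 48. EFNA4 and NTNG2, at 0.36 and 0.37, were the least alike.

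**Figure D1:**
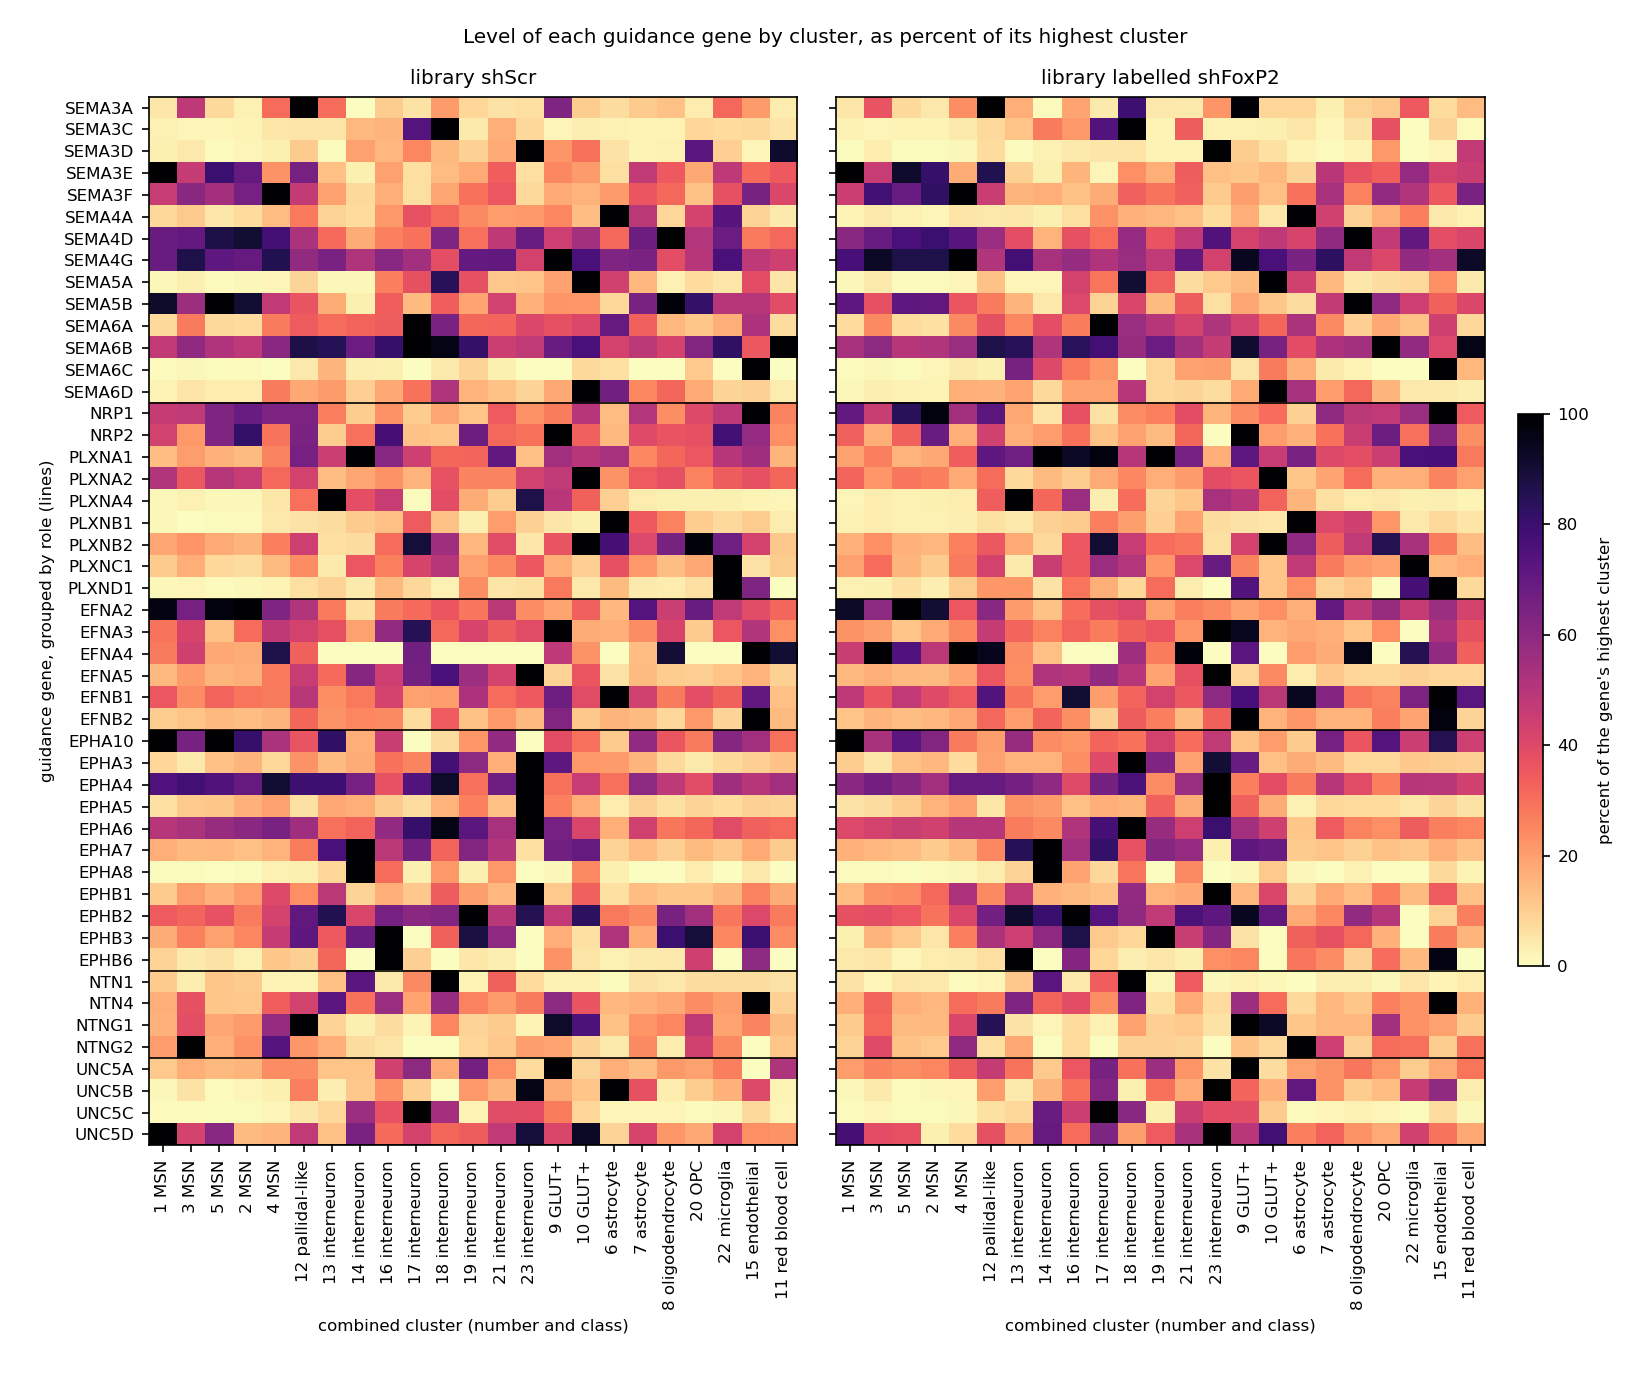
The level of each of the 48 genes with at least 200 UMIs (rows, grouped by role) in each of the 23 clusters (columns), as a percent of the gene's highest cluster, in the shScr library (left) and the library labelled shFoxP2 (right). Darker cells are closer to the gene's own highest level, and 29 of the 48 genes have the same darkest column in both panels.

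The first question was which cell types stood out for which gene. A gene was called cluster-marked where the same cluster had its highest level in both libraries, with at least 20 UMIs there and at least 3 times the level of all other nuclei. Of the 52 genes with at least 20 UMIs in each library, 20 (38.5%) were marked in this way, against 16.1% of all 13332 genes that reached the same minimum. The clusters were drawn from all genes, so neither share is tested. After each nucleus was thinned to 1000 UMIs, 11 of 49 genes (22.4%) were marked, against 10.8% of 11849. The 20 genes were 7 semaphorins, 4 plexins, 1 ephrin, 4 Eph receptors, 2 netrins and 2 UNC5 receptors. They were led by 11 clusters, and 11 of the 20 by interneuron clusters, which led 27.5% of all marked genes. MSN clusters led none of the 20, and 15 of all 2142 marked genes. MSNs were 67.6% and 64.8% of nuclei, so a gene shared by several MSN clusters could hardly reach 3 times all other nuclei. These MSN counts therefore say little about genes that MSN clusters share. For 10 of the 20 the interval of the leading cluster lay above that of the next cluster in both libraries: SEMA6A, SEMA6D, PLXNB1, EFNA5, EPHA5, EPHA7, EPHA8, EPHB1, NTN1 and UNC5C.

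Among the ligands, the semaphorins were divided between neurons and glia. SEMA6D and SEMA5A, transmembrane semaphorins, were highest in GLUT+ cluster 10: SEMA6D stood at 12.4 and 13.4, against 8.26 and 7.19 in astrocyte cluster 6, which came next, and SEMA5A at 5.95 and 5.31, with interneuron cluster 18 close behind at 5.01 and 4.8. SEMA6A was highest in cluster 17, the LHX6 interneurons, at 5.42 and 5.84. The secreted SEMA3C was highest in interneuron cluster 18 (3.93 and 2.85), 23.8 and 17.5 times all other nuclei, although cluster 17 followed at 2.90 and 2.10. SEMA3A, the repellent that gave the class 3 semaphorins their name of collapsins, was highest in the pallidal-like cluster at 0.80 and 0.95, but in shFoxP2 GLUT+ cluster 9 stood at 0.93. SEMA4A was highest in astrocyte cluster 6 (0.73 and 0.99). Of these genes, SEMA6D and SEMA6A had a leading interval above that of the next cluster in both libraries. For SEMA5A, SEMA3C, SEMA3A and SEMA4A the intervals overlapped in shScr, in shFoxP2 or in both. The next cluster was often of another type, such as microglia for SEMA4A in shScr (0.53).

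SEMA3D, another secreted semaphorin, was highest in interneuron cluster 23, the CHAT neurons, at 1.86 and 4.83 (36 and 138 UMIs). This cluster held only 32 and 44 nuclei, the deepest of all (median 6169.5 and 6407 UMIs), of which 53.1% and 75.0% had a SEMA3D UMI. The red blood cell cluster came next in level (1.70 and 2.27), with a UMI in 13.7% and 17.4% of its nuclei at medians of 659 and 630 UMIs, against 1.21% and 0.94% in MSN cluster 1. Thinned to 1000 UMIs per nucleus, the shares were 12.5% (3.51% to 29.0%) and 36.4% (22.4% to 52.2%) in cluster 23 and 11% and 11.8% in the 82 and 68 red blood cell nuclei that were deep enough. In shScr, hemoglobin HBAA stood at 22.9 in the SEMA3D-positive nuclei of cluster 23 and at 0.243 in the others, whereas in shFoxP2 the 2 levels were 0.733 and 0.445. At equal depth the interval of cluster 23 thus included the red blood cell share in shScr and lay above it in shFoxP2.

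SEMA5B and SEMA4D had the most UMIs of the semaphorins, and neither was marked. SEMA5B was high in oligodendrocytes (9.16 and 9.73) and in MSN clusters 1, 2 and 5 (8.60, 8.42 and 9.33 in shScr), and low in astrocyte cluster 6 (0.750 and 0.676) and in interneuron cluster 14 (0.260 and 0.443). SEMA4D was highest in oligodendrocytes at 4.44 and 4.32, with MSN cluster 2 near it at 4.01 and 3.46. SEMA3E, the secreted ligand of plexin D1, was highest in MSN cluster 1 at 3.91 and 3.21. PLXND1 itself was close to 0 in that cluster (0.011 and 0.008) and stood at 0.849 and 0.266 in microglia, on 27 and 4 UMIs, and at 0.537 and 0.343 in endothelial cells.

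The plexins were led by different cell types. PLXNB1 and PLXNB2 bind class 4 semaphorins in mammals; PLXNB1 was highest in astrocyte cluster 6 (1.62 and 1.5), 17.1 and 13.2 times all other nuclei, and PLXNB2 in GLUT+ cluster 10 (8.59 and 10.0), where the oligodendrocyte precursors in shScr (8.43) and interneuron cluster 17 in shFoxP2 (9.07) came close. PLXNA4, a receptor partner of the neuropilins, stood at 12.8 and 13.04 in PVALB interneuron cluster 13, which was 11.3 times all other nuclei in both libraries, and cluster 23 was next in shScr at 11.1. PLXNC1, known as the receptor of SEMA7A, was highest in microglia at 2.92 and 2.46. NRP1, the neuropilin and vascular co-receptor with the most UMIs of its group, was highest in endothelial cells (5.00 and 5.97, on 149 and 261 UMIs). In shFoxP2 MSN cluster 2 was close behind, on 4721 UMIs. PLXNA2 was highest in GLUT+ cluster 10 (7.75 and 7.63). The receptors thus covered glia, vessels and neurons, with no single leading class.

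The 5 marked genes of the ephrin and Eph families were all led by interneuron clusters. EPHA5 reached 34.1 (31.6 to 36.8) and 27.7 (25.8 to 29.7) in CHAT cluster 23, where cluster 19 followed at only 9.04 and 9.28. EFNA5, an A-type ephrin that binds EPHA receptors, was also highest in cluster 23 (14.2 and 19.6), and EPHB1 stood there at 5.27 and 4.17. Cluster 23 therefore led 4 of the 20 marked genes, SEMA3D included, against 6.02% of all marked genes. It was the deepest cluster, with only 32 and 44 nuclei, and in shScr its SEMA3D interval overlapped that of the red blood cell cluster. EPHA7 was highest in PVALB interneuron cluster 14 (23.4 and 22.5) and low in cluster 23 (1.45 and 0.70), where EPHA5 was highest. EPHA8 was also led by cluster 14, at 0.78 and 1.21, 33.8 times all other nuclei in both libraries.

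EPHA6 had the most UMIs of all 55 genes, 139996 over both libraries, and was detected in every cluster. Its level ran from 6.02 and 4.36 in astrocyte cluster 6 to 35.2 and 29.5 in cluster 23, with cluster 18 at 33.8 and 37.0, so the order of those 2 clusters differed between the libraries. The red blood cell cluster held EPHA6 at 11.1 and 9.36, above astrocyte cluster 6. EFNA2, after EFNA5 the ephrin with the most UMIs, was highest in MSN clusters 1, 2 and 5, at 0.828, 0.86 and 0.834 in shScr and 0.791, 0.777 and 0.858 in shFoxP2, with overlapping intervals.

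Of the 4 marked netrins and netrin receptors, NTN1 and UNC5C were led by interneurons. NTN1, the founding netrin, was highest in interneuron cluster 18 (6.99 and 5.58) and next highest in cluster 14 (5.04 and 4.01). UNC5C, a repulsive netrin receptor, was highest in LHX6 cluster 17 at 24.6 (23.2 to 26.1) and 22.6 (21.3 to 23.9), followed by cluster 14 (13.8 and 15.6) and cluster 18 (13.3 and 13.7). Clusters 14 and 18 therefore held high levels of both the ligand and this receptor, and the MSN clusters held UNC5C between 0.115 and 0.448. NTN4, a netrin of basement membranes, was highest in endothelial cells (0.94 and 1.44, on 28 and 63 UMIs), and UNC5A in GLUT+ cluster 9 (0.71 and 0.64). NTNG1, the netrin-G gene with the most UMIs, was highest in pallidal-like neurons in shScr (4.47, against 4.12 in GLUT+ cluster 9). In shFoxP2 it was highest in cluster 9 (6.10), and GLUT+ cluster 10, on 929 UMIs, also stood above pallidal-like neurons (5.17).

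**Figure D2:**
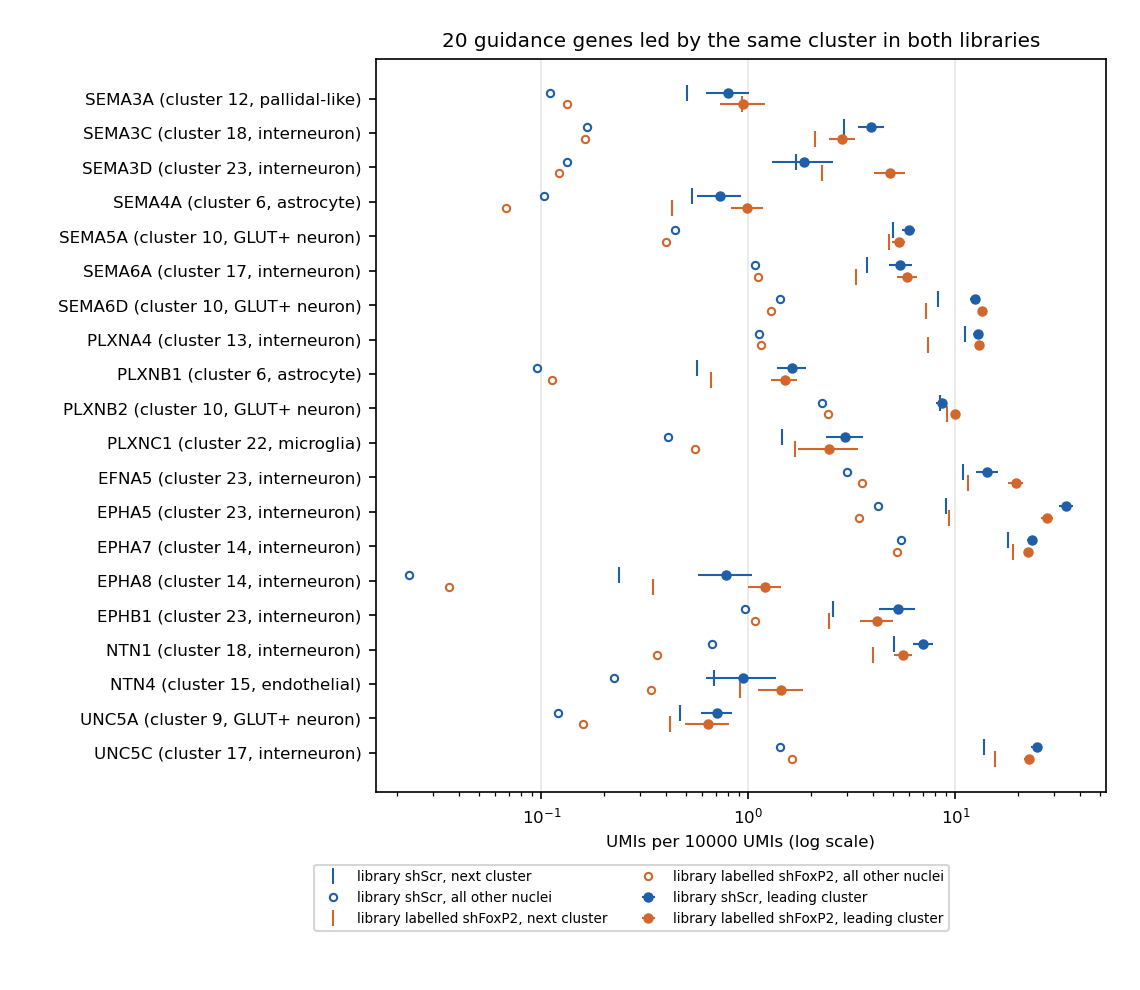
Levels (UMIs per 10000, log scale) of the 20 cluster-marked genes in shScr (blue) and in the library labelled shFoxP2 (orange): filled points with exact 95% counting intervals are the leading cluster, vertical ticks the next cluster and open circles all other nuclei. Leading clusters stood 3.78 to 39.7 times above all other nuclei, while ticks close to the points show genes whose next cluster was nearly as high.

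The next comparison was between 2 groups of MSNs. The study grouped its MSN clusters by dopamine receptors into putative pathways, direct-like and indirect-like, from a separate clustering of shScr; here the combined clusters were regrouped by their DRD2 level alone, so the groups need not hold the same nuclei. Clusters 1, 3 and 5 carried DRD2 (2.11 to 3.74 in shScr) and are called indirect-like, and clusters 2 and 4 (0.196 and 0.205) direct-like; cluster 5, the deepest, held both DRD2 and FOXP2. Of the 39 guidance genes with at least 100 UMIs over both groups in each library, 1 was at least 1 log2 unit higher in indirect-like MSNs in both libraries (2.56%, against 0.596% of 9730 genes) and 2 at least 1 lower (5.13%, against 0.545%). UNC5D, a netrin receptor, was the gene on the indirect-like side, and EPHA5 and SEMA6D were those on the direct-like side. With so few members these shares rest on single genes.

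UNC5D stood at 3.74 in indirect-like and 0.67 in direct-like MSNs of shScr, a log2 ratio of 2.48 (2.36 to 2.59). In shFoxP2 the levels were 3.13 and 0.23, a ratio of 3.78 (3.60 to 3.96). Among the MSN clusters, UNC5D was highest in cluster 1 (4.63 and 4.12) and intermediate in clusters 5 (2.84 and 2.00) and 3 (1.96 and 2.06). It was lowest in clusters 4 (0.721 and 0.387) and 2 (0.660 and 0.163). Over all clusters, cluster 1 was highest in shScr, but CHAT interneuron cluster 23 was highest in shFoxP2, so UNC5D was not particular to indirect-like MSNs. The direct-like levels did not exceed that of the red blood cell cluster (1.06 and 0.967). In cluster 1, 62.0% and 63.1% of nuclei had a UNC5D UMI (34.5% and 31.8% after thinning), against 12.1% and 4.2% in cluster 2 (6.12% and 1.28%) and 8.23% and 5.36% in red blood cells (18.3% and 13.2% of the 82 and 68 nuclei deep enough). UNC5D in direct-like MSNs was thus below the level in the red blood cell cluster, and in cluster 1 it was above it.

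EPHA5 was the reverse: 5.71 and 4.63 in direct-like and 2.84 and 1.94 in indirect-like MSNs, log2 ratios of -1.01 (-1.07 to -0.95) and -1.25 (-1.32 to -1.19). The difference was present within both pairs of clusters, -1.39 and -1.51 for cluster 1 over 2 and -0.80 and -1.46 for cluster 3 over 4. Indirect-like cluster 5, in neither pair, held EPHA5 between the levels of clusters 1 and 2. Without cluster 5 the indirect over direct ratios were -1.19 and -1.49. EPHB1 lay just outside the threshold at -0.80 and -1.03. SEMA6D stood at 1.03 and 0.84 in direct-like and 0.36 and 0.28 in indirect-like MSNs, ratios of -1.51 (-1.66 to -1.36) and -1.59 (-1.76 to -1.43). Its difference rested on cluster 4, where SEMA6D reached 3.44 and 2.20; for cluster 1 over 2 the ratio was -0.89 and -0.75, short of the threshold. SEMA5B, in contrast, differed little between the pathways (8.14 in indirect-like and 7.64 in direct-like MSNs of shScr).

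**Figure D3:**
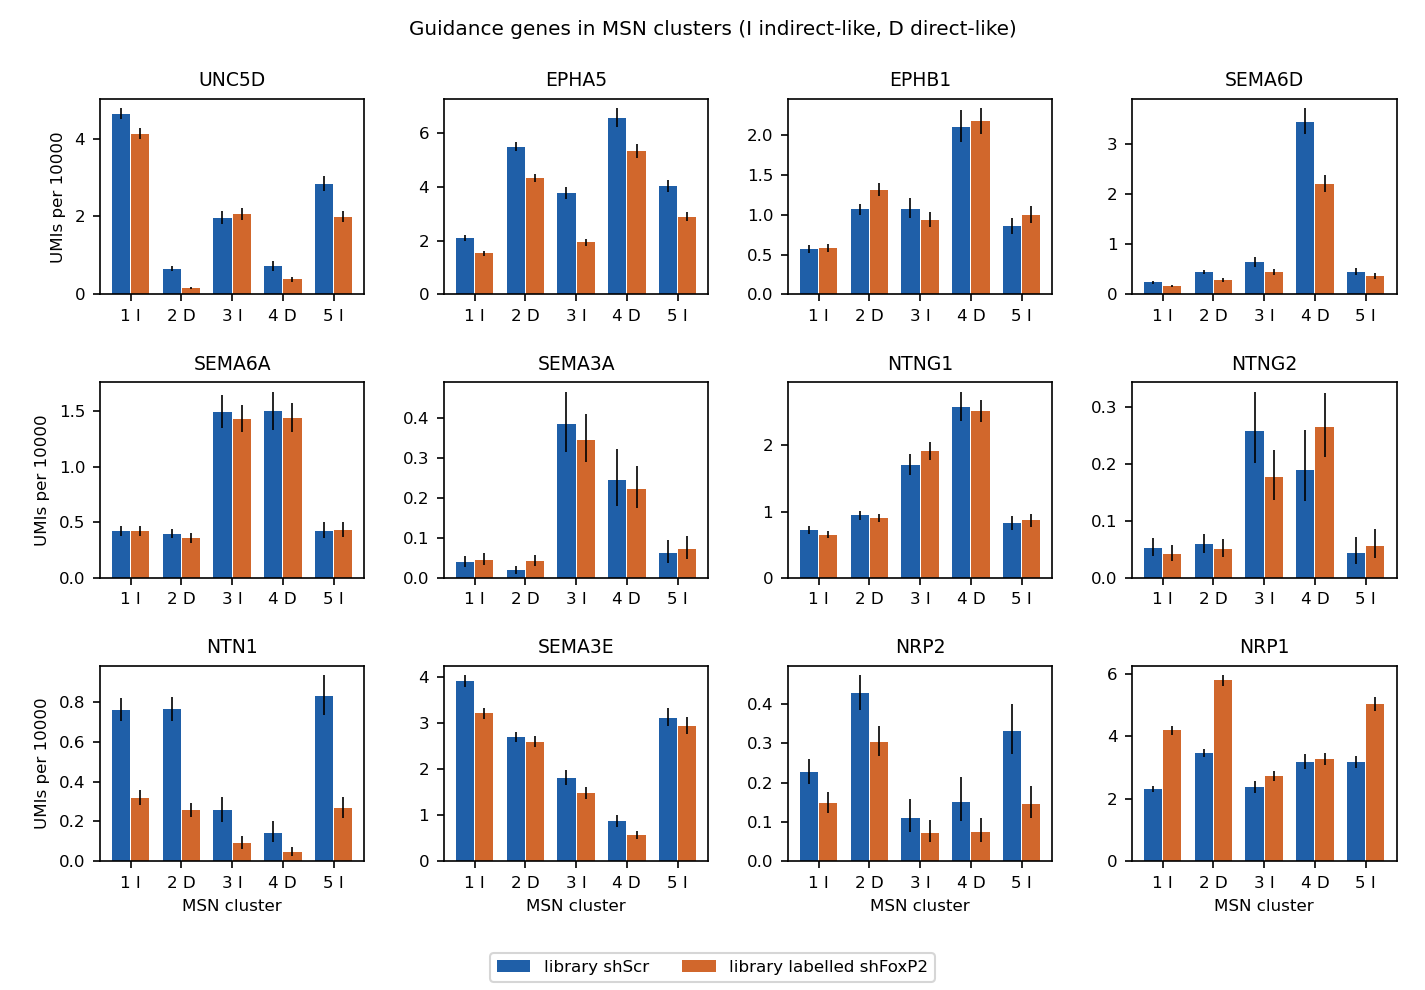
Levels (UMIs per 10000) of 12 guidance genes in MSN clusters 1 to 5 in shScr (blue) and in the library labelled shFoxP2 (orange), with exact 95% counting intervals; I and D mark indirect-like and direct-like clusters. UNC5D is high in clusters 1, 3 and 5. EPHA5 is highest in clusters 2 and 4, with cluster 5 between clusters 1 and 2. SEMA6A, SEMA3A, NTNG1 and NTNG2 stand out in clusters 3 and 4.

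A further division of the MSNs crossed the pathways. Clusters 3 and 4, one indirect-like and one direct-like, shared differences from clusters 1 and 2 in 8 genes, while others, such as UNC5D, differed in opposite directions; this comparison was chosen after the data had been seen and, as clusters were drawn from these genes among others, it is a description. Of 38 guidance genes with at least 50 UMIs in each pair of clusters and library, 5 (13.2%, against 1.31% of 9282 genes) were at least 1 log2 unit higher in cluster 3 over 1 and in cluster 4 over 2 in both libraries. A further 3 (7.89%, against 0.345%) were at least 1 lower in all 4 ratios. The 5 were SEMA3A, SEMA6A, SEMA6D, NTNG1 and NTNG2, and the 3 were NTN1, SEMA3E and NRP2.

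SEMA6A stood at 0.42, 0.40 and 0.42 in clusters 1, 2 and 5 of shScr and at 1.49 and 1.5 in clusters 3 and 4; in shFoxP2 the levels were 0.42, 0.36 and 0.43 against 1.43 and 1.43. No interval of clusters 3 and 4 overlapped those of the other 3. The log2 ratios of cluster 3 over 1 were 1.82 and 1.76, and those of cluster 4 over 2 were 1.91 and 2.01. SEMA3A was low throughout but had the largest ratios in shScr, 3.26 for cluster 3 over 1 and 3.70 for cluster 4 over 2 (2.94 and 2.41 in shFoxP2), with levels of 0.38 and 0.24 in clusters 3 and 4 of shScr against 0.04 and 0.02 in clusters 1 and 2. The netrin-G genes, whose proteins sit at synapses, behaved alike: NTNG1 stood at 0.72 and 0.94 in clusters 1 and 2 and at 1.70 and 2.58 in clusters 3 and 4 of shScr, and NTNG2 stood at 0.05 and 0.06 against 0.26 and 0.19. NTN4 lay just outside, with 0.94 as the smallest of its 4 ratios.

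The secreted ligand NTN1 had the opposite pattern, with 0.76 and 0.76 in clusters 1 and 2 of shScr against 0.25 and 0.14 in clusters 3 and 4, and 0.32 and 0.26 against 0.09 and 0.04 in shFoxP2. SEMA3E stood at 3.91 and 2.70 in clusters 1 and 2 and at 1.81 and 0.87 in clusters 3 and 4 of shScr, with log2 ratios of -1.11 and -1.63. The neuropilin NRP2, a co-receptor of class 3 semaphorins, had 0.23 and 0.43 against 0.11 and 0.15 (ratios of -1.03 and -1.5). Cluster 5 resembled clusters 1 and 2 for these genes, with NTN1 at 0.83, SEMA3E at 3.12 and NRP2 at 0.33. The red blood cell cluster held NTN1 at 0.396 and 0.209, above clusters 3 and 4, but on only 13 and 8 UMIs. The part of free RNA in the low levels was not tested. EPHA3 lay just outside, at -0.91 and -0.95 for cluster 3 over 1.

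**Figure D4:**
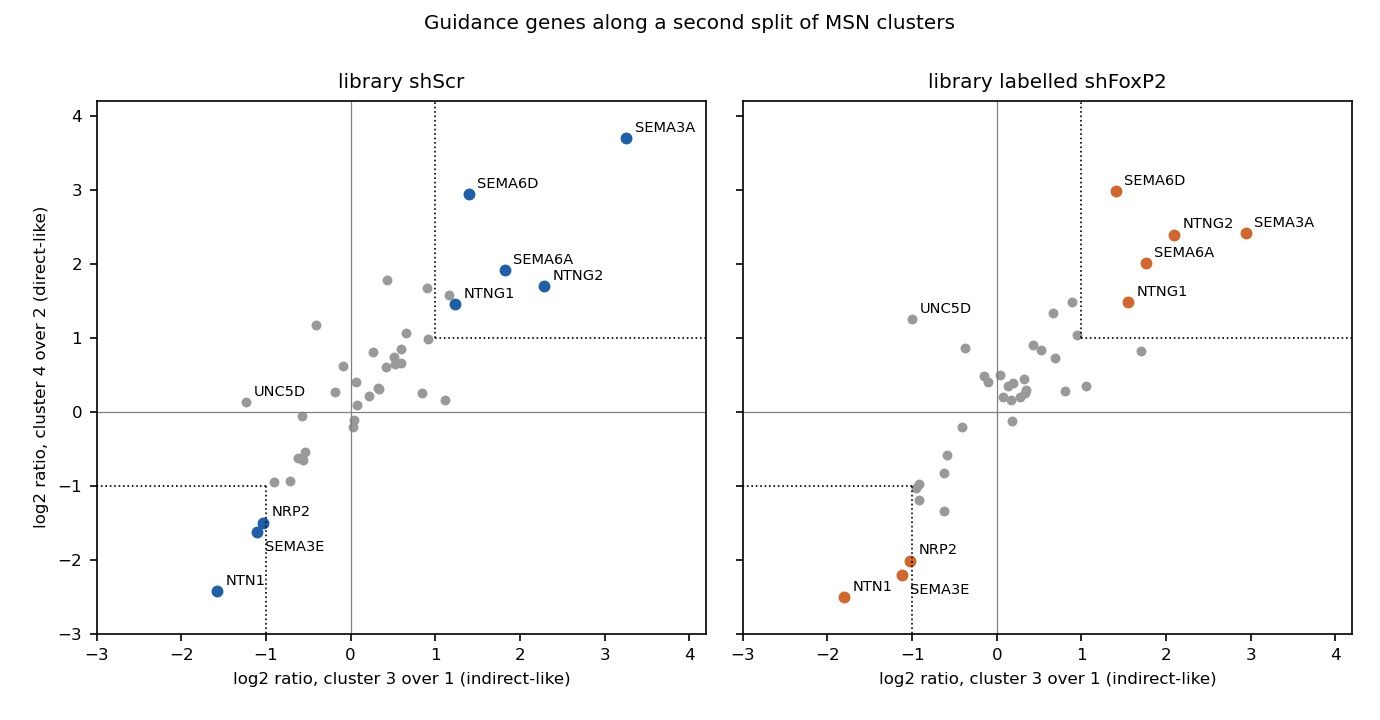
Log2 ratio of cluster 3 over 1 (x axis) and of cluster 4 over 2 (y axis) for 38 guidance genes in shScr (left) and in the library labelled shFoxP2 (right); coloured points are the 8 genes past 1 or -1 (dotted lines) in all 4 ratios. SEMA3A, SEMA6A, SEMA6D, NTNG1 and NTNG2 fall at the upper right and NTN1, SEMA3E and NRP2 at the lower left of both panels. UNC5D does not follow the diagonal. Its cluster 4 over 2 ratio had an interval that included 0 in shScr (-0.14 to 0.39) and lay above 0 in shFoxP2.

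The last comparison set the library labelled shFoxP2 against shScr. Over all MSN nuclei, 40 guidance genes had at least 200 UMIs and 15 had fewer, among them SEMA3B with none and PLXNB1 with 52 and 115. Of the 40, 5 (12.5%) were at least 0.5 log2 units higher in shFoxP2, against 9.11% of 10125 genes, and 4 (10.0%) at least 0.5 lower, against 9.1%. These shares are near the background, so the families as a whole did not stand apart from other genes between the libraries. The ratio was above 0 for 16 and below 0 for 24, with a median of -0.13 (0.01 over all genes), and its median absolute size was 0.29 (0.22). By role, 3 of 7 plexins and neuropilins were higher and 2 lower, while none of the 5 ephrins and 8 Eph receptors was past 0.5 in either direction. The ephrins had a median of -0.17 and the Eph receptors of -0.22.

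Of the ligands, NTN1 differed most: 0.66 in shScr and 0.23 in shFoxP2 (1679 and 626 UMIs), a log2 ratio of -1.55 (-1.68 to -1.42). It was lower in all 5 MSN clusters, by -1.26, -1.58, -1.49, -1.65 and -1.64 in clusters 1 to 5. In the clusters where NTN1 was highest the difference was smaller, -0.33 in each of interneuron clusters 14 and 18. NTN1 was below 0 in 22 of the 23 clusters, the red blood cell cluster included (0.396 and 0.209), and the part of free RNA in the MSN difference was not tested. The ratio was thus below 0 in neurons, glia and red blood cells, with interneuron cluster 17 (0.15) as the exception. Its interval lay below 0 in 13 of the 23 clusters only. In red blood cells the ratio was -0.92 (-2.40 to 0.46) on 13 and 8 UMIs.

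NTN4 was the opposite, at 0.17 and 0.29 with a ratio of 0.80 (0.63 to 0.98), and was higher in each MSN cluster (0.42 to 1.15). SEMA4A was lower, at 0.06 and 0.03 on 151 and 76 UMIs, a ratio of -1.12 (-1.53 to -0.71); in astrocyte cluster 6, where it was highest, the ratio was 0.44 with an interval that reached 0 (-0.001 to 0.89). The 2 netrins thus differed in opposite directions.

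Among the receptors, NRP1 had 7291 and 12298 UMIs in MSNs, with levels of 2.89 and 4.46 and a ratio of 0.63 (0.59 to 0.67). The ratio differed between MSN clusters: 0.86, 0.75 and 0.66 in clusters 1, 2 and 5, and 0.20 and 0.04 in clusters 3 and 4. NRP1 was also higher in oligodendrocytes, at 1.18 and 2.91, a ratio of 1.30 (0.98 to 1.63), and in the red blood cell cluster, at 1.28 and 2.07. The NRP1 ratio was above 0 in 17 of 23 clusters. The part of MSN RNA in the NRP1 values outside MSNs was not tested. NRP2, the other neuropilin, was lower in MSNs at 0.29 and 0.17, a ratio of -0.73 (-0.90 to -0.56), and in each of the 5 clusters. The 2 co-receptors thus lay on opposite sides.

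PLXNA2 stood at 3.57 and 2.05 in MSNs (9002 and 5649 UMIs), a ratio of -0.80 (-0.85 to -0.75), and its 5 MSN clusters gave -0.69, -0.80, -0.74, -0.85 and -0.85. It was below 0 in 22 of 23 clusters, with the interval below 0 in 18, and was -0.70 in red blood cells, but in GLUT+ cluster 10, where PLXNA2 was highest, the ratio was -0.02. PLXNC1 (737 and 1273 UMIs) had a ratio of 0.66 (0.53 to 0.80), with 0.43 to 0.71 over the 5 MSN clusters. PLXNA4 (608 and 995 UMIs) had a ratio of 0.58 (0.44 to 0.73), but was -0.32 (-0.66 to 0.03) in cluster 4. With the shares of the 5 MSN clusters held equal in both libraries its ratio was 0.49, short of the threshold, while SEMA6D (-0.60) and SEMA3C (-0.50) passed it. UNC5A was higher in MSNs at 0.10 and 0.16, a ratio of 0.61 (0.39 to 0.84), and in each of the 5 clusters (0.36 to 0.75). Plexins and neuropilins, 7 of the 40 tested genes, therefore made up 5 of the 9 past the threshold. Of all genes 9.11% were past it upward and 9.1% downward. With the cluster shares held equal, PLXNA4 was no longer among these 5.

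**Figure D5:**
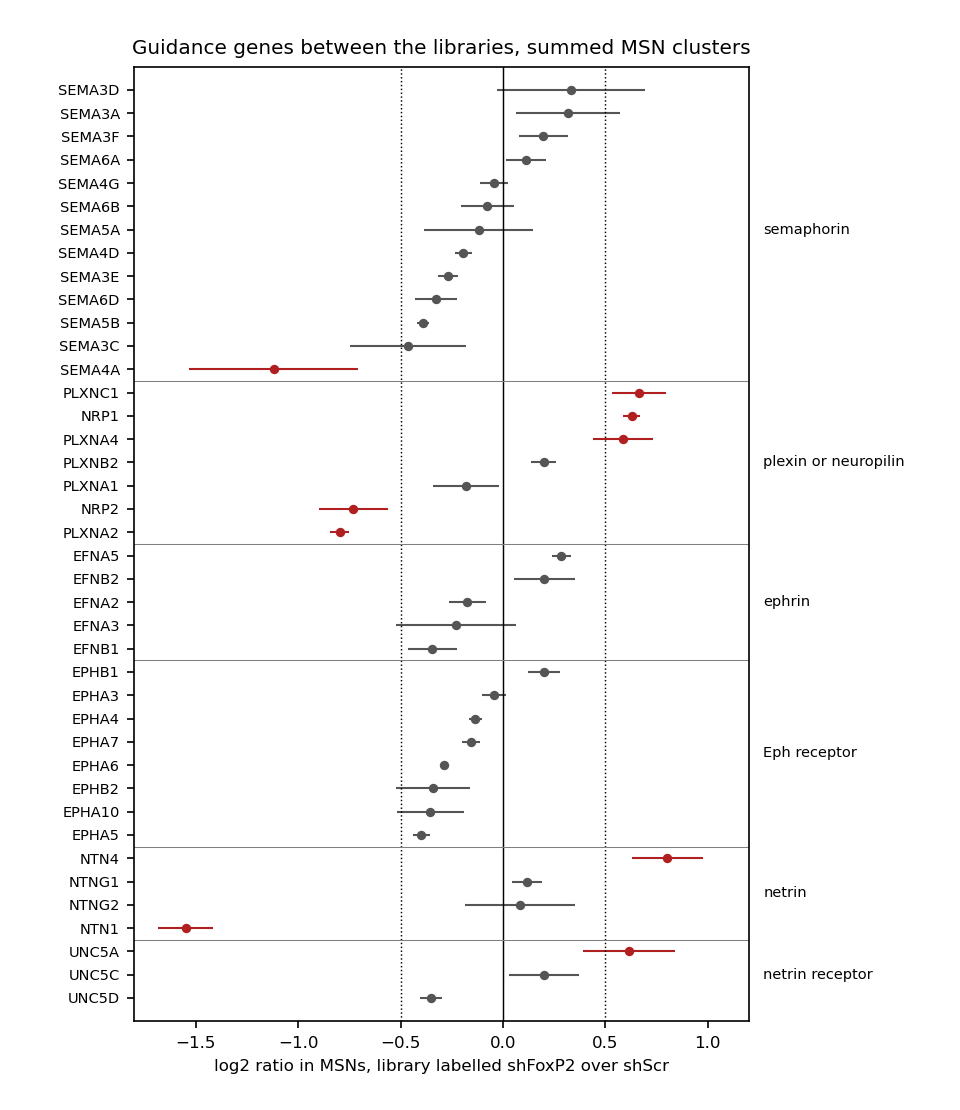
Log2 ratio of the library labelled shFoxP2 over shScr in the summed MSN clusters for the 40 guidance genes with at least 200 UMIs, grouped by role, with exact 95% counting intervals; dotted lines mark 0.5 and -0.5 and red points lie past them. Semaphorin, ephrin and Eph genes lie mostly between the lines, while NTN1 (-1.55) and NTN4 (0.80) are the lowest and the highest.

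UNC5D was short of the threshold over all MSNs (-0.35), but its ratio differed between clusters. It was -2.02 (-2.30 to -1.74) in cluster 2 and -0.90 (-1.25 to -0.55) in cluster 4, against -0.17 in cluster 1 and 0.07 in cluster 3. By the levels given above, UNC5D was also lower in shFoxP2 in indirect-like cluster 5, so the lower levels were not confined to direct-like clusters. Summed, UNC5D was -1.56 in direct-like and -0.26 in indirect-like MSNs. The direct-like ratio compares levels at or below that of red blood cells (1.06 and 0.967). In cluster 2 of shScr, DRD2 stood at 0.275 (0.189 to 0.386) in nuclei with a UNC5D UMI and at 0.183 (0.153 to 0.217) in those without. Cluster 2 was called direct-like for its low DRD2, so both values were bound to be low. The source of the UNC5D UMIs in this cluster was not tested. In astrocyte cluster 6, by contrast, UNC5D was higher in shFoxP2: 37 and 179 UMIs, levels of 0.402 and 1.42, and a ratio of 1.83 (1.31 to 2.38). UNC5D UMIs were found in 5.08% and 18.8% of those nuclei (2.75% and 10.1% after thinning), and FOXP1, a gene of MSNs, stood at 10.6 and 4.89 in them against 3.53 and 3.66 in the other nuclei of the cluster; the part of MSN RNA in this difference was not tested.

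NTNG2 also differed in astrocyte cluster 6, with 1 UMI in shScr and 56 in shFoxP2, levels of 0.011 and 0.446. It was detected in 0.19% and 7.26% of nuclei (0% and 3.92% after thinning), against 0.30% and 1.34% in red blood cells. In shFoxP2 the NTNG2-positive nuclei had FOXP1 at 2.91 (1.95 to 4.18, on 29 UMIs), against 4.04 in the others. The astrocyte glutamate transporter SLC1A2 stood at 92.6 in them and at 98.7 in the others. The part of MSN RNA in the NTNG2 difference was not tested. In astrocyte cluster 7 NTNG2 was also higher, with 14 and 44 UMIs and a ratio of 1.65 (0.75 to 2.63). Over all MSNs NTNG2 was 0.09 in both libraries.

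Guidance genes past 0.5 in other classes are given next, among those with at least 200 UMIs in the class, with the share of all genes in brackets. A class sums clusters whose shares differed between the libraries, so values within clusters are given beside several of the calls. Direct-like MSNs had 5 of 34 higher (7.99% of all genes) and 5 lower (7.88%), and indirect-like MSNs 5 of 38 higher (8.86%) and 5 lower (8.84%). NRP1, NTN4, PLXNA4, PLXNC1 and UNC5A were higher in both pathways, and NRP2, NTN1 and PLXNA2 were lower in both. EPHA10 and UNC5D were lower in the direct-like and EPHA5 and SEMA3C in the indirect-like group, differences whose contrast was not tested. With 108 and 89 UMIs in direct-like MSNs, SEMA3C was under the minimum of 200 there and could not be called. In interneurons EPHA8 and UNC5B were higher, 2 of 36 (3.67%), and EFNB1 and PLXNA2 lower (6.45%). EPHA8 was 0.63 in cluster 14, which led it. The UNC5B call rested largely on cluster 17, where it had 6 and 47 of the 93 and 188 UMIs of the class. EFNB1 ran from -1.24 in cluster 14 to 0.31 in cluster 16. In GLUT+ neurons NTNG1 and PLXNB2 were higher, 2 of 31 (4.51%), and 6 genes were lower (6.68%): EFNB1, EPHA3, PLXNA1, SEMA3E, SEMA5B and UNC5A. Cluster 9 of this class held 477 and 247 nuclei and cluster 10 held 333 and 374. NTNG1 (0.57 and 0.74 in clusters 9 and 10) and SEMA3E (-1.37 and -0.79) were past the threshold in both. PLXNB2 (0.44 and 0.22) was short of it in both, and EPHA3 (-0.10), UNC5A (-0.14), SEMA5B (-0.18) and PLXNA1 (-0.22) were short of it in cluster 9. EFNB1 was -0.59 in cluster 9 and -0.49 in cluster 10. In cluster 10 UNC5A rested on 8 and 7 UMIs, a ratio of -0.51 (-2.21 to 1.14). Over both astrocyte clusters PLXNA4 was higher, 1 of 30 (5.93%), and EPHA5, PLXNA2 and SEMA5B lower (4.58%). PLXNA4 (0.69 and 0.70 in clusters 6 and 7), EPHA5 (-0.69 and -0.59) and PLXNA2 (-0.96 and -0.87) were past the threshold in each cluster, but SEMA5B (-0.15 and -0.40) in neither. In oligodendrocytes NRP1 was higher, 1 of 14 (4.49%), and 0 were lower (5.07%), and in pallidal-like neurons 0 of 17 were higher (3.31%) and EPHA5 and PLXNA2 lower (3.6%). In endothelial cells 0 of 7 were higher (3.76%) and SEMA5B was lower (5.49%), at -0.53 (-0.88 to -0.18). In oligodendrocyte precursors (4 tested), microglia (4) and red blood cells (3), 0 were past the threshold. Of all genes, 3.52%, 9.04% and 9.2% were higher and 4.16%, 7.95% and 13.6% lower in these 3 classes. PLXNA2 was thus past the threshold in the most classes, lower in both MSN groups, interneurons, astrocytes and pallidal-like neurons.

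Other genes of these pathways were taken from a list of 43, of which 38 have a gene row: further netrin partners (DSCAM, LRRC4C), repulsive guidance molecules, the collapsin response mediators (DPYSL genes), MICAL enzymes and the exchange factors and adaptors downstream of plexins and Eph receptors. Of 32 with at least 200 UMIs in MSNs, 2 were higher (9.11% of all genes) and 5 lower (9.1%) in shFoxP2 by at least 0.5, and the median was -0.02. The exchange factors FARP1 (0.22 and 0.40, a ratio of 0.88) and DOCK1 (0.47 and 0.72, a ratio of 0.62) were higher in MSNs, but both were led by astrocyte cluster 6, at 22.02 and 21.57 for FARP1 and 8.79 and 10.7 for DOCK1; the part of astrocyte RNA in the MSN values was not tested. MICAL2, an actin-oxidising enzyme, was lower at 0.14 and 0.04 (-1.99), as were the exchange factors VAV2 (-0.78) and VAV3 (-0.72), RGMA (-0.62) and DPYSL3 (-0.59). VAV3 and RGMA were also led by astrocyte cluster 6. In shScr MICAL2 was highest in microglia (1.32, and 1.13 there in shFoxP2). VAV2 was highest in oligodendrocytes (2.39 and 2.22) and DPYSL3 in interneuron cluster 18 (0.42 and 0.30). The part of RNA from these classes in the MSN values was not tested. Between the pathways 1 of the listed genes was past 1 in both libraries, on the side where 0.545% of all genes were: DSCAM, a netrin receptor in mammals, was lower in indirect-like MSNs by log2 ratios of -2.07 and -2.08, on the same side as EPHA5 and SEMA6D.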

How the data were processed

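Nuclei were sequenced by droplet 3′ single-nucleus RNA sequencing. The authors aligned reads and counted UMIs with Cell Ranger, kept nuclei by UMI and mitochondrial limits (500 to 9997 UMIs and at most 4.992% mitochondrial in the table), and clustered both libraries together; they deposited the counts, raw whole UMIs per nucleus and gene (17430 gene columns), beside cluster and library labels, which are other, non-numeric values the authors deposited. Library codes in the table were matched to groups by barcode: all 14289 nuclei of one code occur in the authors' table of shScr alone, against 47 of the other. The UMI ceiling was the treatment of doublets; no caller was run. The deposited shScr-alone clusters served only as an alternative.

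UMIs were summed over nuclei by cluster and library and divided by the summed totals, per 10000 UMIs. Levels have exact Poisson intervals, shares exact Clopper-Pearson intervals and ratios exact binomial intervals, all 95% and for counting error only; a count of 0 was set to 3 counts in a ratio. No test was run, since each group is 1 library. Total UMIs were 39179294 and 42662731. For shares at equal depth nuclei were thinned to 1000 UMIs, which left out 626 and 531 shallower nuclei. A cluster was indirect-like where its DRD2 level was at least 0.25 of the highest MSN cluster. The members and lists were chosen with earlier results of these data known. Named genes were the cluster-marked genes, those past 1 between pathways or 0.5 between libraries in MSNs, and the 2 with most UMIs in each role; SEMA3E, PLXND1, EPHA3, EPHB1, NTNG2, EPHA10 and other genes outside that rule were named after their values were seen. Scripts ran in Python 3.11.15 with numpy 2.4.6, scipy 1.17.1, pandas 2.3.3 and matplotlib 3.10.9, and were tested on simulated counts. Promoter, miRNA and protein sequences were not used here.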

Additional observations from a re-analysis of the deposited data

Results flagged for a closer look

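The difference of UNC5A between the libraries had opposite signs in 2 cell classes. Its log2 ratio of shFoxP2 over shScr was 0.65 in indirect-like MSNs (134 and 231 UMIs) and -0.66 in GLUT+ neurons (139 and 75 UMIs), and with 1 library per group the difference was not tested. Within GLUT+ cluster 9, where UNC5A was highest, the ratio was -0.14 on 131 and 68 UMIs, and that cluster held 477 nuclei in shScr and 247 in shFoxP2.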

How the results depend on the processing

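Of 67 values for the main counts and medians under the alternatives, 58 stayed within 1.5 times the reported count or within the spread, 9 moved and 0 reversed. No paired analysis was possible because each group is 1 library. Thinning each nucleus to 1000 UMIs left 11 of the 20 cluster-marked genes, all among the 20 (22.4% of 49 genes, against 10.8% of all genes), and requiring 5 times the level of all other nuclei left 13, by construction; the clusters of shScr alone, a single library, gave 29, with all 20 shared. In MSNs, a minimum of 50 UMIs gave 8 genes higher in shFoxP2 in place of 5, and no minimum gave 11 higher and 8 lower, since genes with few UMIs then enter. A threshold of 1 log2 unit between libraries left 0 higher and 2 lower. A threshold of 0.5 gave 6 genes between the pathways in place of 3, and 16 between clusters 3 and 4 and clusters 1 and 2 in place of 8, the latter chosen after seeing the data. With MSN clusters 1 and 2 alone, also chosen after seeing the data, 2 genes were past 1 between the pathways and SEMA6D was not. With the shares of the MSN clusters held fixed, 4 genes were higher and 6 lower: PLXNA4 (0.49) was no longer past the threshold, and SEMA6D (-0.60) and SEMA3C (-0.50) were. Median shifts between libraries (0.006 over all genes) were too small to change a direction. Genes under 200 UMIs in MSNs, 15 of 55, and clusters of few nuclei, such as cluster 23, are limited by depth.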

Other observations

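EFNA4, an A-type ephrin, had 25 UMIs in shScr and 139 in shFoxP2 over all MSNs, levels of 0.010 and 0.050, under the minimum of 200 UMIs. This difference was not tested.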
